A study of Saccharomyces cerevisiae with 6 samples.

Results

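The genes described here encode the proteins of the cytosolic ribosome of budding yeast, Saccharomyces cerevisiae. They were chosen by name: every open reading frame whose standard name is RPL or RPS with a number and an optional A or B, plus the P stalk genes RPP0, RPP1A, RPP1B, RPP2A and RPP2B. The rule found 137 of the 6696 open reading frames in the files. Of these, 81 encode proteins of the large subunit (P proteins included) and 56 proteins of the small subunit. They fall into 78 protein families on 15 chromosomes. There are 59 pairs of duplicated genes, called A and B, and 19 genes with a single copy. RNA was sequenced from 6 libraries of strain BY4741 and its derivative in which CYC8 is replaced by a kanMX4 cassette. The 4 groups were cyc8 deletion in mannose (1 library), cyc8 deletion in glucose (2 libraries), wild type in mannose (1 library) and wild type in glucose (2 libraries). The sugar was added to a peptone and yeast extract medium, and the labels give 3 h for each sugar. CYC8 encodes a subunit of the Cyc8-Tup1 corepressor, which glucose-repressed genes depend on for silencing. The labels do not say whether the libraries of a pair came from separate cultures, so the p-values measure only the spread between these libraries, which may be technical. That spread is mostly pooled over genes, so the p-value and SE of a gene can understate the gap between its own replicates.

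A ribosome contains a single copy of most of its proteins, so growing cells make these proteins in near-equal numbers and spend a large share of their transcription on them. In yeast the genes are switched on together through Rap1, Fhl1, Ifh1 and Sfp1, under the control of the TORC1 and protein kinase A pathways, and they are turned down together in stress and poor nutrients. Many members carry an intron, which is rare in this organism, and most are duplicated, with copies that differ more in their flanking sequence than in their protein.

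The libraries held 26195734 to 44084216 counts, and the members took 96 to 285027 counts each, so all 137 passed the filter on low counts. CYC8 itself had 180 counts in the deletion in mannose and 71 and 124 in the deletion in glucose, against 7602 in the wild type in mannose and 7506 and 9295 in the wild type in glucose. Levels below are CPM scaled by TMM factors, that is, counts relative to the scaled total of the library, which makes libraries comparable for 1 gene. Levels are shares of the sequenced RNA: less ribosomal protein mRNA per cell and more of other RNA cannot be told apart here. A gene is said to have risen or fallen where edgeR's quasi-likelihood test gave a Benjamini-Hochberg adjusted p under 0.05 over all 6146 open reading frames tested. Each mannose group is 1 library, which the model assumes to vary like the glucose pairs.

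Copies differ in how well short reads can tell them apart, and the following sequences show the range for the pairs that matter most below. They are the whole coding sequence of the RPL41 genes and the last 78 coding bases of the RPS22 and RPL9 genes, 5′ to 3′ on the coding strand, from the RefSeq R64 genome. Capitals mark the bases that differ between the copies. The regions are chrIV:130407-130484 (minus strand) for RPL41A, chrIV:221724-221801 (minus) for RPL41B, chrX:74910-74987 (minus) for RPS22A, chrXII:857240-857317 (plus) for RPS22B, chrVII:227754-227831 (minus) for RPL9A and chrXIV:500179-500256 (plus) for RPL9B.
RPL41A: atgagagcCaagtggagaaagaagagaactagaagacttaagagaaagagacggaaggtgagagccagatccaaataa
RPL41B: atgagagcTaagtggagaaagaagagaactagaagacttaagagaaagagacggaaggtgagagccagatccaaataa
RPS22A: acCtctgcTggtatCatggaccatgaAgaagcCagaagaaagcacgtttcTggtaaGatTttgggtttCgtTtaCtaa
RPS22B: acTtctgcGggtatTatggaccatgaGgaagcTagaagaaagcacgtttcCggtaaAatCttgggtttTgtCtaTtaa
RPL9A: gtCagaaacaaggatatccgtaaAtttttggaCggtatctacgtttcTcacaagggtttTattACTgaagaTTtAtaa
RPL9B: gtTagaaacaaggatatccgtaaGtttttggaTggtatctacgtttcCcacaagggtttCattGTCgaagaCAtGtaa
The RPL41 copies differ at 1 base of 78, and the RPS22 and RPL9 stretches at 11 bases each. Over whole coding sequences, identity between copies ran from 69.2% to 99.4% with a median of 93.2%, and 21 pairs encode the same protein. In 57 of 59 pairs at least 20% of the 50-base stretches of both copies occur nowhere else among the coding sequences. The exceptions were RPL1 and RPL35. The counting of reads that match several places was not given in the sources used here, so separate values for near-identical copies such as RPL1A and RPL1B, RPL35A and RPL35B, RPS8A and RPS8B, RPL4A and RPL4B, RPS6A and RPS6B, and RPL41A and RPL41B are uncertain.

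The members together took the smallest share of counts in the deletion grown in mannose. The share was 5.09% in the deletion in mannose, 11.9% and 11.5% in the deletion in glucose, 19.9% in the wild type in mannose and 18.1% in both wild-type glucose libraries. In glucose the mean was 11.7% ± 0.35 in the deletion against 18.1% ± 0.021 in the wild type (SD, n = 2 each), with no overlap. The mannose share lay below the glucose share in the deletion and above it in the wild type.

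**Figure D1:**
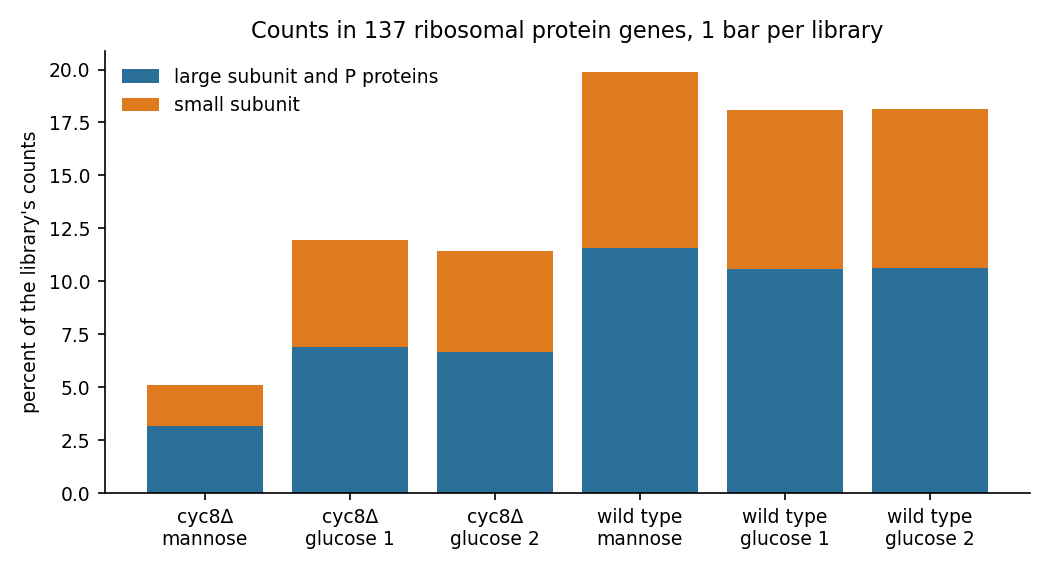
Share of each library's counts (percent, y axis) taken by large subunit genes with the P proteins (blue) and small subunit genes (orange), 1 bar per library. The bars total 5.09% in the deletion in mannose, 11.9% and 11.5% in the deletion in glucose, 19.9% in the wild type in mannose and 18.1% in each wild-type glucose library.

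In glucose, loss of CYC8 came with lower levels of nearly every ribosomal protein gene. Of the 137 members 134 fell, 0 rose and 3 did not pass the test, where 37.8% of all open reading frames tested fell and 30.1% rose. The median log2 fold change was -0.72, which is 0.605 times the wild-type level, beside -0.08 over all open reading frames tested. Its size depends on the processing. With trends of GC content and coding length taken out by least squares it was -1.04, beside -0.19 over all. By a robust fit of these trends it was -0.69, beside 0.005 over all. Both deletion libraries lay below both wild-type libraries in 134 members, against 46.8% of all open reading frames.

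The lowest fold change was that of RPS28B, a small subunit gene whose own product lowers its mRNA. RPS28B had 37.7 and 42.8 CPM in the deletion in glucose, against 89.9 and 88.1 CPM in the wild type in glucose, a log2 fold change of -1.14 ± 0.08 (SE; adjusted p = 6.68e-24). RPS22A, which encodes a small subunit protein, had 595.7 and 507.3 CPM in the deletion in glucose, against 1164 and 1198 CPM in the wild type (-1.10 ± 0.08, adjusted p = 7.9e-22). RPL23A (-1.09), RPL9A (-1.05) and RPL20A (-1.003), all of the large subunit, came next. Among the single-copy genes, RPL5, whose protein carries a small ribosomal RNA into the large subunit, had the lowest value at -0.92 ± 0.09, followed by RPS15 at -0.91 and RPS12 at -0.83.

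Outside the fall stood RPS22B, RPL41A and RPL41B. RPS22B had 225.2 and 221.9 CPM in the deletion in glucose, against 212.0 and 236.0 CPM in the wild type in glucose, so the groups overlapped (adjusted p = 0.971). RPL41A had 22.0 and 24.2 CPM in the deletion, against 18.9 and 23.8 CPM in the wild type (0.11 ± 0.10, adjusted p = 0.325). RPL41B had 27.0 and 28.5 CPM in the deletion, against 21.4 and 29.7 CPM in the wild type (0.12 ± 0.10, adjusted p = 0.293). Of these 3, the RPL41 genes depend on single libraries: without deletion glucose replicate 1 RPL41A (0.24) and RPL41B (0.22) passed the test as higher, as RPL41B did without wild-type glucose replicate 2 (0.37). With trends of GC content and coding length taken out by least squares they were -0.81 and -0.52. The RPL41 genes are the shortest members, at 26 codons, and RPS22B is 1 of 3 members with a small nucleolar RNA gene inside an intron. The smallest falls among called members were those of RPL9B (-0.31 ± 0.08) and RPL39 (-0.40 ± 0.08). Both rest on single libraries: RPL9B was -0.16 and no longer passed without deletion glucose replicate 1 (adjusted p = 0.0677, edgeR), and RPL39 was -0.17 without wild-type glucose replicate 2 (adjusted p = 0.182, edgeR). RPL39 also missed the threshold with DESeq2 (-0.33, adjusted p = 0.209).

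In mannose the difference between the genotypes was larger and covered every member. All 137 members were lower in the deletion than in the wild type, where 41.1% of all open reading frames were. The median log2 fold change was -1.99, or 0.252 times the wild-type level, beside -0.07 over all. With the trends taken out it was -2.17 by least squares, beside -0.24 over all. By the robust fit it was -1.82, beside 0.0048 over all. RPS22A had 151.6 CPM in the deletion in mannose and 1064 CPM in the wild type in mannose (-2.81 ± 0.13, adjusted p = 4.2e-37). RPS28B (-2.72), RPS29A (-2.58), RPS10B (-2.53) and RPL16A (-2.47) followed. At the other end were large subunit genes: RPL4A (-0.83 ± 0.12), RPL3 (-0.87 ± 0.13), RPL4B (-0.89), RPL15B (-0.91) and RPL10 (-1.10). RPL3 had 4035 CPM in the deletion in mannose and 7379 CPM in the wild type in mannose. The comparison sets 1 library against 1.

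**Figure D2:**
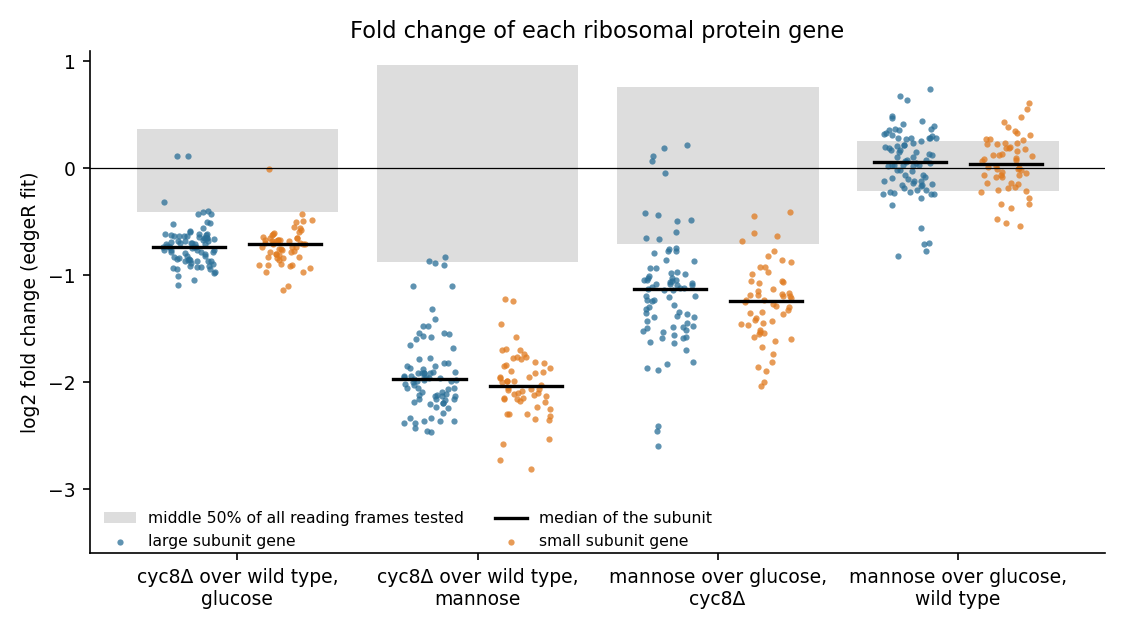
Log2 fold change (y axis) of each large subunit gene (blue) and small subunit gene (orange) in the 4 comparisons, with the median of each subunit as a black line and the middle 50% of all open reading frames tested in grey. Nearly all points lie below 0 in the first 3 comparisons, with medians of the members of -0.72, -1.99 and -1.20, and around 0 for mannose in the wild type, with a median of 0.06.

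Within the deletion, mannose lowered most members further. Of 137 members 132 fell, 1 rose and 4 did not pass the test, where 39.7% of all open reading frames fell and 37.6% rose. The median was -1.20, or 0.437 times the glucose level, beside -0.04 over all. This comparison shares the deletion mannose library with the genotype comparison in mannose and the deletion glucose libraries with the genotype comparison in glucose.

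RPL39, a very short protein at the exit of the tunnel through which the new chain leaves the ribosome, had 36.6 CPM in the deletion in mannose, against 238.0 and 206.4 CPM in the deletion in glucose (-2.60 ± 0.12, adjusted p = 1.38e-35). RPL41A had 4.22 CPM in the deletion in mannose, against 22.0 and 24.2 CPM in the deletion in glucose (-2.45 ± 0.17), and RPL41B had a like value of -2.41. RPS29A (-2.04) and RPS27A (-2.00), small zinc-binding proteins of the small subunit, were next. At the other end stood some of the largest members. RPL4A had 2470 CPM in the deletion in mannose, against 2190 and 2048 CPM in the deletion in glucose, and was the 1 member that rose (0.22 ± 0.10, adjusted p = 0.0493). That call rests on the scaling and on each library: it was lost in 8 alternatives and when any glucose library was left out. The value was -0.04 with upper-quartile factors. After trends with GC content and coding length were taken out, RPL4A passed as lower, at -0.52 by least squares and -0.48 by the robust fit. RPL3 (0.19 ± 0.11), RPL4B (0.11), RPP2B (0.07) and RPL10 (-0.04 ± 0.11) did not pass the test. After the trends were taken out, by least squares or by the robust fit, 3 of these passed as lower: RPL3 (-0.37 or -0.31), RPL4B (-0.64 or -0.60) and RPL10 (-0.32 or -0.31). RPL10 also passed as lower with upper-quartile factors (-0.30, adjusted p = 0.00876, edgeR).

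In the wild type, mannose changed fewer members, and in both directions. Of 137 members 35 rose, 17 fell and 85 did not pass the test, where 20.5% of all open reading frames rose and 16.9% fell. The median was 0.06, beside 0.02 over all. This balance depends on the processing. With these trends taken out of each library, 15 members rose and 32 fell by least squares, and 17 rose and 27 fell by a robust fit. The members' medians were then -0.09 and -0.03. Of all 6146 open reading frames tested 1062 rose and 1122 fell by least squares, and 1192 rose and 962 fell by the robust fit. Without wild-type glucose replicate 2, 13 rose and 9 fell, and 27 fell without either deletion glucose library. None passed at a fixed biological coefficient of variation of 0.2.

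The largest rises in wild-type mannose were those of RPP2B and RPP1A, which encode proteins of the P stalk, followed by RPL6A (0.64 ± 0.09), RPS6A (0.61) and RPS6B (0.56). The stalk is the flexible arm of the large subunit that recruits translation factors: RPP0 is its base, and RPP1A, RPP1B, RPP2A and RPP2B form its dimers. RPP2B had 1751 CPM in the wild type in mannose, against 1087 and 1008 CPM in the wild type in glucose (0.74 ± 0.10, adjusted p = 5.9e-10). RPP1A had 1056 CPM in mannose, against 658.2 and 663.3 CPM in glucose (0.68 ± 0.09, adjusted p = 4.03e-09). RPP0 had 5085 CPM in mannose, against 3702 and 3558 CPM in glucose (0.49 ± 0.10, adjusted p = 7.46e-05). All 5 stalk genes rose, with a median of 0.49, where 20.5% of all open reading frames tested did. After either trend was taken out 4 of 5 still did, where 1062 of all 6146 did by least squares and 1192 by the robust fit. RPP1B (0.28) lost its call there and without wild-type glucose replicate 2. In the deletion the stalk genes took part in the fall. In glucose 5 of 5 were lower than wild type, with a median of -0.50, where 37.8% of all open reading frames were. In mannose 4 of 5 fell, with a median of -0.48, where 39.7% of all did. The sizes depend on the trends: by least squares the medians were -1.70 in glucose and -0.67 for mannose, and by the robust fit -0.58 and -0.78, with the same counts. Of all 6146, 2960 were then lower in glucose and 2573 for mannose by least squares, and 2026 and 2397 by the robust fit. These functional groups were drawn up after the values were seen, so their counts are descriptions.

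The other groups moved as follows in wild-type mannose. The 6 genes of RPL2, RPL3, RPL4 and RPL10, proteins at the core of the large subunit around the site of peptide bond formation, all rose (median 0.36), but 1 of 6 did after either trend was taken out. RPL10 had 4382 CPM in mannose, against 3254 and 3082 CPM in glucose (0.47 ± 0.10, adjusted p = 0.000137). Of 6 genes of small subunit proteins near the mRNA path (RPS0, RPS2, RPS3 and RPS23) 4 rose, with a median of 0.26, and 1 did after either trend was taken out. Of 12 genes for proteins of the exit tunnel and its rim 0 rose and 2 fell. Of all open reading frames 20.5% rose and 16.9% fell, so the share of these 12 that fell was near that of all. After the trends were taken out, 6 of the 12 fell by least squares and 5 by the robust fit, and 0 rose by either. Of all 6146 tested, 1122 fell and 1062 rose by least squares, and 962 fell and 1192 rose by the robust fit. The largest falls were in very short genes. RPL41B had 14.6 CPM in the wild type in mannose, against 21.4 and 29.7 CPM in glucose (-0.82 ± 0.13, adjusted p = 1.43e-07). RPL41A (-0.77), RPL39 (-0.71 ± 0.10), RPL29 (-0.70 ± 0.09) and RPL37B (-0.56) followed.

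The effect of mannose differed between the genotypes for nearly every member. The interaction, the log2 fold change of mannose over glucose in the deletion minus that in the wild type, was below 0 past the test in 134 of 137 members, where 34.4% of all open reading frames were. Its median was -1.27, beside -0.08 over all. With the trends taken out the median was -1.14 by least squares and -1.11 by the robust fit, beside -0.11 and -0.08 over all. The interaction was lowest for RPL39 (-1.89 ± 0.15), RPS22A (-1.71), RPL41A (-1.68), RPS21A (-1.67) and RPS29A (-1.66). The 3 members that did not pass were RPL3 (-0.11 ± 0.15), RPL4A (-0.15) and RPL4B (-0.25). All 3 passed as lower in other settings: with upper-quartile factors they were -0.35, -0.40 and -0.50, by least squares -0.41, -0.53 and -0.63, and by the robust fit -0.41, -0.56 and -0.67. RPL4B also passed without deletion glucose replicate 2 (-0.35). In order of group means, from lowest to highest, 76 members ran from deletion in mannose through deletion in glucose and wild type in glucose to wild type in mannose, and 52 had the same order with the wild-type groups exchanged.

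The medians of large and small subunit genes lay close together. In glucose, 79 of 81 large subunit genes and 55 of 56 small subunit genes were lower in the deletion, with medians of -0.73 and -0.71. The medians for the genotypes in mannose were -1.97 for the large and -2.04 for the small subunit, and for mannose in the deletion -1.13 and -1.24. In wild-type mannose 20.5% of all open reading frames rose and 16.9% fell. Of large subunit genes 23 rose and 9 fell, and of small subunit genes, at shares near those of all, 12 rose and 8 fell. That balance turned in both subunits after the trends were taken out. By least squares 9 large subunit genes rose and 19 fell, and 6 small subunit genes rose and 13 fell. By the robust fit the counts were 10 and 15 for the large and 7 and 12 for the small subunit. Over all 6146 open reading frames tested the balance also turned by least squares (1062 rose, 1122 fell) but not by the robust fit (1192 and 962). By the robust fit the share of large subunit genes that fell was near that of all. Counts of large over small subunit genes stood at 1.63 in the deletion in mannose, 1.36 and 1.38 in the deletion in glucose, 1.39 in the wild type in mannose and 1.40 and 1.41 in the wild type in glucose. The deletion mannose library thus had a higher ratio than the other 5. RPL3, RPL4A, RPL4B and RPL10, all of the large subunit, were not called lower for mannose in the deletion with TMM factors before the trends were taken out. Each was called lower after either trend was taken out, and between genotypes in mannose. Their part in the ratio was not tested.

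The medians of A and B copies lay close together as well. Medians in glucose were -0.73 for A copies and -0.74 for B copies, and in mannose between genotypes -2.02 and -1.99. The A copies took 52.2% to 52.7% of the counts of all pairs in each of the 6 libraries. A was above B in all 6 libraries in 27 pairs and B above A in 19. The ratio of A to B in glucose was above wild type in both deletion libraries in 21 pairs, below in 20 and overlapping in 18. No share over other gene pairs was worked out, so these counts are a description. Very small differences are among them. In RPL35, counted as above, log2 of A over B was 0.031 and 0.045 in the deletion, against 0.023 and 0.017 in the wild type.

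Single pairs did shift. The largest shift was in RPS22, whose proteins differ at 1 residue: log2 of A over B was 0.74 in the deletion in mannose, 1.40 and 1.19 in the deletion in glucose, 2.31 in the wild type in mannose and 2.46 and 2.34 in the wild type in glucose. The fold change of RPS22A minus that of RPS22B between genotypes in glucose was -1.10 ± 0.11 (SE). RPL9A, with 799.6 and 715.6 CPM in the deletion in glucose against 1594 and 1539 CPM in the wild type, also fell more than RPL9B, with 445.1 and 498.3 CPM in the deletion against 576.1 and 594.6 CPM in the wild type. The difference between the RPL9 copies was -0.74 ± 0.11. Of the 50-base stretches of each copy, 100.0% in RPS22 and 86.0% in RPL9 occur nowhere else.

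The other pairs with large shifts in glucose were RPS28 (A minus B, 0.60 ± 0.11), RPP2 (-0.51 ± 0.11), RPS26 (0.47 ± 0.12) and RPS29 (-0.43 ± 0.11). RPP2A and RPP2B parted further in mannose. RPP2A had 247.6 CPM in the deletion in mannose, against 378.8 and 402.9 CPM in the deletion in glucose, while RPP2B had 816.8 CPM in mannose, against 777.8 and 776.6 CPM in glucose (A minus B, -0.73 ± 0.14). RPL43 (0.65 ± 0.15), RPL22 (0.65 ± 0.18), RPS29 (-0.62), RPP1 (0.59) and RPS22 (-0.56) came next in the deletion. In wild-type mannose the largest shifts were in RPL37 (0.67 ± 0.14), RPS7 (0.50 ± 0.14), RPS21 (0.42), RPP1 (0.39), RPL17 (0.39) and RPS29 (-0.36). RPL37B had 505.4 CPM in the wild type in mannose, against 704.2 and 785.6 CPM in glucose, and RPL37A had 474.6 CPM, against 424.2 and 457.5 CPM. Pairs of high identity showed small shifts: the median absolute difference in glucose was 0.032 over 9 pairs above 97% coding identity and 0.19 over 21 pairs below 92%. The part of shared reads in this was not tested.

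**Figure D3:**
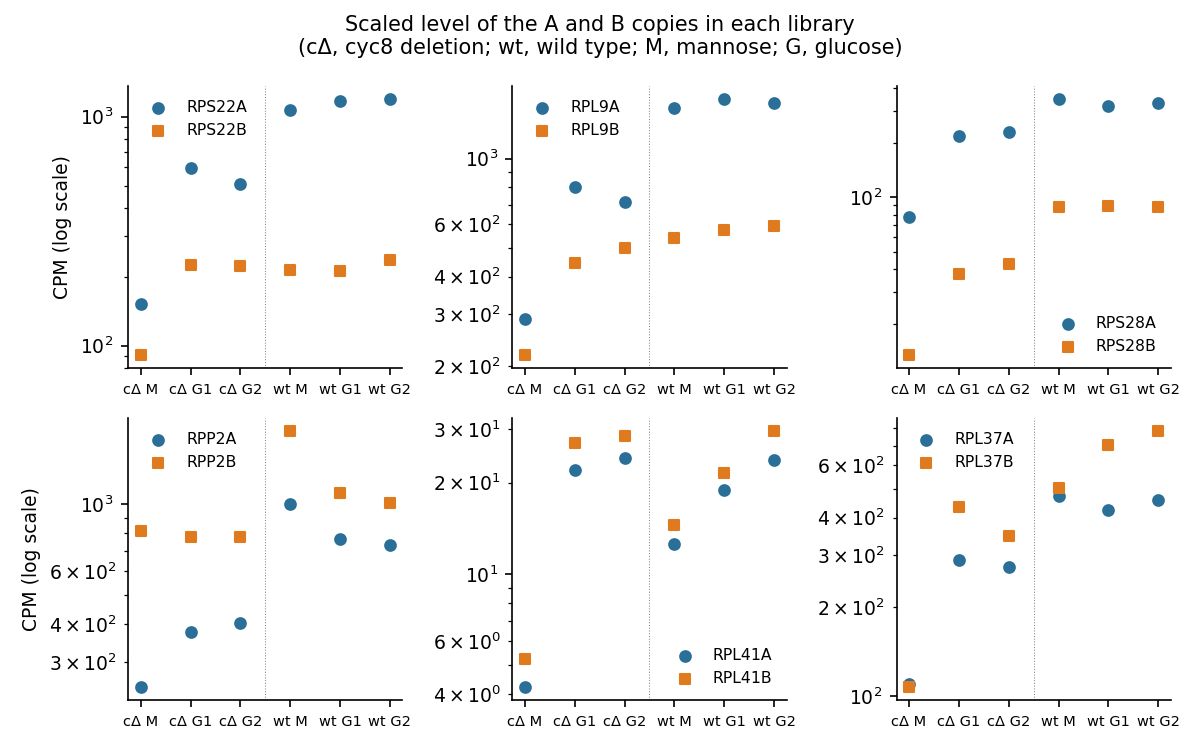
Level (CPM, log scale, y axis) of the A copy (blue circles) and B copy (orange squares) of 6 pairs in each of the 6 libraries, deletion libraries left of the dotted line. RPS22B and RPL9B change less than their A copies between genotypes in glucose, and the RPL41 copies move together.

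Coding length went with the size of the mannose effect. In the deletion, the median fold change in mannose was -1.49 for 33 members under 110 codons, -1.21 for 72 members from 110 to under 200 codons and -0.90 for 32 members of 200 codons or more. In the wild type the same classes had medians of -0.15 (6 rose, 15 fell), 0.02 (12 rose, 2 fell) and 0.27 (17 rose, 0 fell). Of all open reading frames tested 20.5% rose and 16.9% fell, so in the classes under 200 codons the shares that rose were near that of all. The counts of the classes depend on the trends. With the trends taken out, 1062 of all 6146 rose and 1122 fell by least squares, and 1192 and 962 did by the robust fit. By least squares 5 rose and 15 fell under 110 codons, 5 rose and 17 fell from 110 to under 200, and 5 rose and 0 fell at 200 or more. By the robust fit the counts were 5 and 13, 7 and 14, and 5 and 0, with medians of -0.13, -0.07 and 0.09. Between genotypes in glucose they were -0.73, -0.74 and -0.68. Spearman's rho with coding length over the 137 members, given as a description because members share libraries and base composition, was 0.58 for mannose in the deletion, 0.50 for mannose in the wild type and 0.039 for the genotypes in glucose. Over 5691 other nuclear open reading frames the values were 0.083, -0.073 and -0.025. The same measure between the wild-type glucose replicates (2 over 1) was -0.51, so length also separates libraries of 1 group. The part of this in the mannose values was not tested. With the robust fit of trends removed, the medians of the length classes in the deletion were -1.14, -1.21 and -1.04.

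**Figure D4:**
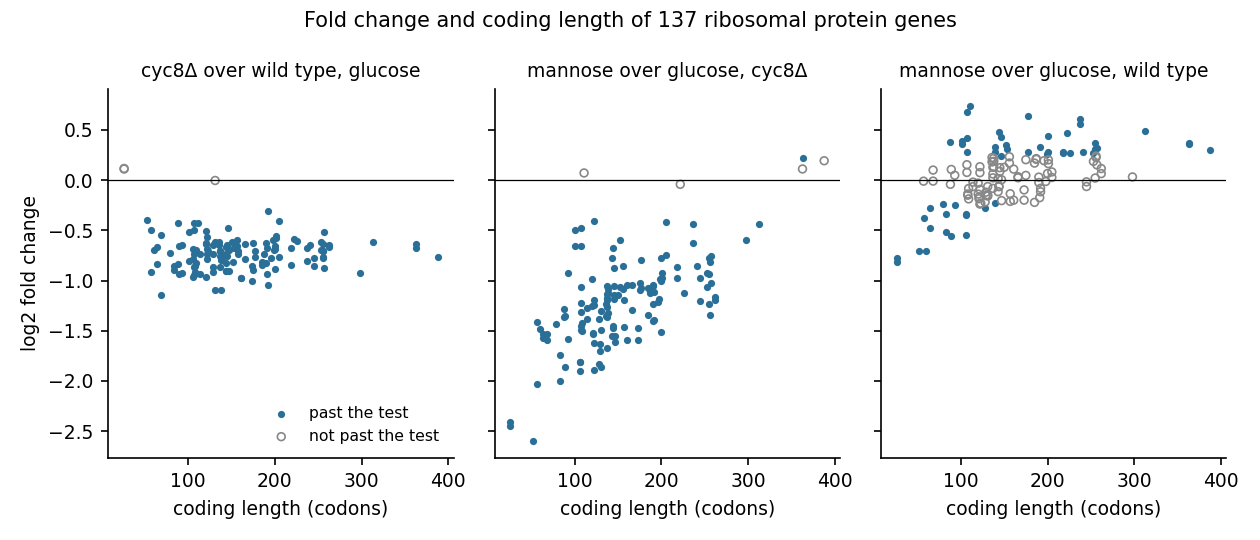
Log2 fold change (y axis) of each of the 137 genes against coding length (codons, x axis) in 3 comparisons, with filled points for genes past the test and open circles for the others. Short genes lie lowest for mannose in both genotypes, and no such slope is seen between genotypes in glucose.

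Members with an intron (89) and without (48) differed little in glucose, with medians of -0.74 and -0.68. By least squares the medians in glucose were -1.038 and -1.035. For mannose in the deletion they were -1.24 and -1.004, with 89 of 89 and 43 of 48 genes lower, where 39.7% of all open reading frames were. After either trend was taken out, 89 of 89 and 46 of 48 were lower. The medians were then -1.26 and -1.07 by least squares, and -1.22 and -1.001 by the robust fit. The 4 members that did not pass before the trends were taken out, and RPL4A, all lack an intron.

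Levels per coding length show which members are most abundant. In the wild type in glucose RPS31, which encodes a ubiquitin fused to a small subunit protein, had the highest level at 27.6 CPM per codon of the reference coding sequence, followed by RPS26A (16.7), RPL3 (15.5), RPL5 (14.96) and RPS8A (14.7). The lowest were RPL22B (0.317), RPL41A (0.828), RPL41B (0.990), RPL15B (0.991) and RPS9A (1.06). The replicate values of RPL41B overlapped those of RPL41A, RPL15B and RPS9A. Divided by the shorter length in the deposited files, RPL32 (15.6) stood among the 5 highest in place of RPL5, and RPL15B (1.04) and RPS9A (1.12) lay below RPL41A (1.35) and RPS28B (1.54), with RPL41B (1.61) next. RPL22B, RPS9A and RPS28B are known to be held down by their own proteins.

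The core of the binding site of Rap1, the general activator of these genes, was searched in the 500 bases before each start codon, on both strands, as ACCCNNACA preceded by AC. This longer core was found in 19 of 137 members (13.9%) and in 0.936% of all 5986 such windows. Windows of 5 members, from R64, are printed on the plus or minus strand on which the gene lies, with the match in capitals. These members hold the lowest gene by level per codon (RPL22B), a gene that did not pass the test in glucose (RPL41B), a single-copy gene (RPL25) and a pair (RPS10A and RPS10B). The regions are chrVI:65154-65194 (minus), chrXV:79935-79975 (plus), chrIV:222122-222162 (minus), chrXV:866743-866783 (plus) and chrXIII:732209-732249 (plus).
RPL22B: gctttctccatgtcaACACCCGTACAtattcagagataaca
RPL25: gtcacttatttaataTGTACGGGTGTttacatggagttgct
RPL41B: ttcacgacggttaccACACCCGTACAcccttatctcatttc
RPS10A: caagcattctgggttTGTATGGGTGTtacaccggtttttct
RPS10B: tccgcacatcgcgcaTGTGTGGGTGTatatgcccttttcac
ACCCNNACA alone, which lies within the longer core, was found in 54 members (39.4%) and 5.48% of all windows. The run AAAATTTT was found in 12.4% of members and 12.4% of all windows. Members with and without the longer core had medians of -0.75 and -0.71 between genotypes in glucose, and -1.31 and -1.19 for mannose in the deletion. These gaps did not hold after the trends with GC content and coding length were taken out. In glucose the medians were then -0.95 and -1.04 by least squares, and -0.68 and -0.69 by the robust fit. For mannose in the deletion they were -1.18 and -1.20 by least squares, and -1.17 in both by the robust fit.

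Of 15 listed regulators of these genes, 5 were higher in the deletion in glucose and 7 were lower, shares near the 30.1% and 37.8% of all open reading frames. CRF1, a corepressor of ribosomal protein genes, had 7.98 and 7.18 CPM in the deletion in glucose, against 3.49 and 2.54 CPM in the wild type (1.34 ± 0.15, adjusted p = 6.53e-13). DOT6 (1.00 ± 0.08), a repressor of ribosome synthesis genes, YAK1 (0.78), a kinase that opposes growth, and STB3 (0.45), another repressor of such genes, were also higher. TOR1 (0.19) was higher too. RAP1 (-0.83 ± 0.07), FHL1 (-0.51), SFP1 (-0.58) and HMO1 (-0.65) were lower, as were MRS6 (-0.40), RPD3 (-0.31) and ESA1 (-0.21). IFH1 (0.01 ± 0.08), SCH9 (0.03) and TOD6 (0.04) did not pass the test. For mannose in the deletion 11 of 15 rose and 2 fell, where 37.6% and 39.7% of all did. DOT6 had 937.1 CPM in the deletion in mannose, against 264.9 and 255.8 CPM in the deletion in glucose (1.85 ± 0.09), and STB3 rose by 1.84. YAK1 (1.59), CRF1 (1.49), ESA1 (1.02), SCH9 (0.79), IFH1 (0.61), TOD6 (0.59), TOR1 (0.52), MRS6 (0.46) and HMO1 (0.32) rose as well. FHL1 (-0.57) and SFP1 (-0.44) fell, and RAP1 (-0.11) and RPD3 (0.14) did not pass the test. After the trends with GC content and coding length were taken out, 9 rose and 3 fell by the robust fit, and 8 and 4 by least squares. In the wild type 3 of 15 rose in mannose (YAK1, DOT6 and HMO1), a share near the 20.5% of all open reading frames.

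Other genes of ribosome synthesis and translation are set beside these shares of all open reading frames: 37.8% lower in glucose and 41.1% lower between genotypes in mannose. Of 11 chaperones dedicated to single ribosomal proteins 10 were lower in the deletion in glucose (median -0.69) and 11 of 11 in mannose between genotypes (median -1.23), led by SYO1 (-1.83 ± 0.13), which carries Rpl5 and Rpl11 into the nucleus. ASC1, a small subunit protein outside the name rule, was lower in the deletion in glucose (-0.79 ± 0.09) and in mannose (-1.65 ± 0.12). Of 25 nucleolar assembly factors 25 were lower in glucose (median -0.58). Of 7 RNA polymerase I subunits 6 were (median -0.63), and of 18 initiation factors 17 (median -0.53). Of 11 elongation factor genes 8 were lower and 3 higher. The higher ones were ANB1, the low-oxygen copy of a translation factor (6.18 ± 0.11), HEF3 (1.84 ± 0.11) and CAM1 (0.20 ± 0.08).

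The 67 genes named as mitochondrial ribosomal proteins are set beside the members here, with no test of the difference. In glucose 36 were lower in the deletion and 3 higher (median -0.26), where 37.8% and 30.1% of all open reading frames were. In wild-type mannose 37 rose and 0 fell (median 0.32), where 20.5% and 16.9% of all did. In the deletion 18 rose and 29 fell in mannose (median -0.17), where 37.6% and 39.7% of all did, so the share that fell was near that of all open reading frames.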

How the data were processed

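Per the labels, total RNA was depleted of ribosomal RNA and made into stranded libraries. The deposited files give raw counts per open reading frame in column 3. Column 2 of the deposited files is another number, a length equal to the codons minus 10 for 116 of 137 members. The submitters' processing notes name TopHat2 2.0.9, Bowtie2 2.3.4.2, CASAVA 1.8 and build sacCer3. What counted the reads, with which strand setting, and how it treated reads matching several places was not given in the sources used here. Names, introns and sequences come from RefSeq R64, which holds 6008 of the 6696 open reading frames.

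The test was edgeR's quasi-likelihood F test (edgeR 4.0.16, R 4.3.3) with Benjamini-Hochberg adjustment. Settings were filterByExpr defaults (6146 tested, 550 left out), TMM factors and 1 mean per group over 6 libraries. Residual and prior degrees of freedom were 2 and 86.7, and the common biological variation was 5.54%. The SE came from dividing the size of the log2 fold change by the root of F, and for a pair is the root of the summed squares. Libraries of a glucose pair differed by more than counting error (chi-square per degree of freedom, 22.5 for the deletion and 11.1 for wild type). The scripts were tested on simulated data. Alternatives were other scalings (DESeq2 1.42.0 among them), filters, a fixed variation, left-out libraries and the removal of trends with GC content and coding length. Trends were first taken out by least squares. A robust local regression (span 0.3) was added after those values were seen, and both are given. ACCCNNACA alone was also chosen after seeing the data.

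The genes named were the 5 highest and 5 lowest members by log2 fold change in each comparison, those not called in glucose, the 6 pairs of largest difference in 3 comparisons, the extreme single-copy genes in glucose, and the 5 highest and lowest levels per codon of the reference coding sequence (the deposited length was also tried). Others, and the functional groups, were chosen after their values were seen. The members and lists were chosen with earlier results of these data known.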

Additional observations from a re-analysis of the deposited data

Results flagged for a closer look

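The effect of mannose differed between the deletion and the wild type, by a test of the difference itself (edgeR's interaction term, Benjamini-Hochberg adjusted over all genes tested), in 134 members, all with a lower value in the deletion. Each mannose group is 1 library, so neither the difference nor its size has a replicate check in mannose.

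The lowest values of this difference on the log2 scale were -1.89 for RPL39, -1.71 for RPS22A, -1.68 for RPL41A, -1.67 for RPS21A and -1.66 for RPS29A. Among the 5 members nearest 0, those past the test were RPL15B at -0.50 and RPS20 at -0.48. RPS20 no longer passed after trends of GC content and coding length were taken out, at -0.13 by least squares and -0.059 by the robust fit.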

How the results depend on the processing

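The fall of the members in the deletion in glucose (134), between genotypes in mannose (137) and for mannose in the deletion (132) kept its direction and stayed within 1.5 times its count in all alternatives run, but for a fixed biological coefficient of variation of 0.2, which left 68 in glucose. That setting also left 45 in the interaction and 0 for mannose in the wild type, in either direction. For mannose in the wild type, taking out GC content and coding length trends gave 15 higher and 32 lower by least squares and 17 and 27 by the robust fit. Leaving out 1 library gave 22 to 68 called, 13 to 41 higher and 9 to 27 lower. Leaving out 1 library gave 0 to 2 higher in glucose. The 1 rise for mannose in the deletion became 0 with upper-quartile factors, TMM factors without the members, no filter, 10 CPM in 2 libraries, either trend removal, the fixed variation, only the groups compared, and each left-out library (0 to 0). The cause of these changes was not tested.

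Upper-quartile factors moved the median of all genes by -0.26 for mannose in the deletion, -0.32 between genotypes in mannose and -0.25 in the interaction, and the members' medians there became -1.45, -2.31 and -1.52. Least squares moved the median of all genes by -0.11 in glucose and -0.17 between genotypes in mannose. The members' medians there became -1.04 and -2.17.

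The signs of the following values turned. RPS22B in glucose was 0.0573 with DESeq2 size factors, 0.0033 with no filter, 0.0695 at 10 CPM, 0.0588 with DESeq2, 0.0599 with the robust trend, 0.059 with only the groups compared and -0.0785 to 0.0747 with a library left out. RPL41A was -0.8133 and RPL41B -0.521 by least squares, and with a library left out they ran from -0.0434 to 0.2892 and from -0.0948 to 0.3722. For mannose in the deletion, upper-quartile factors gave RPP2B -0.1863, RPL4B -0.1467, RPL3 -0.0646 and RPL4A -0.0371. Least squares gave RPL4B -0.6369, RPL3 -0.3731 and RPL4A -0.5206. The robust trend gave RPP2B -0.1175, RPL4B -0.5958, RPL3 -0.3143, RPL4A -0.4799 and RPS20 0.0132. For mannose in the wild type, least squares gave RPL37A -0.0208 and RPL17A -0.0171, and RPS29B was 0.0049 with DESeq2 size factors, 0.0001 with no filter, 0.0058 with DESeq2, 0.0522 with the robust trend and -0.0869 to 0.0709 with a library left out. Of 1361 values of single genes over all alternatives 1244 kept their call and direction.

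Over reference reading frames only, the members' share was 5.121% in the deletion in mannose, 19.94% in the wild type in mannose and 18.14% and 18.17% in the wild type in glucose. ACCCNNACA alone was in 54 members. Deviations of glucose libraries with the same replicate number correlated at -0.046 over 6146 genes and at -0.23 over the 137 members. These values cannot settle whether the numbers pair the libraries, since the labels do not say how the libraries were grown. With a replicate block the 4 glucose libraries gave 134 members lower, and 134 without it, and RPS22B was 0.061 with the block and 0.059 without.

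Each mannose group is 1 library, how reads of near-identical copies were assigned was not stated, and the lowest count of a member in any library was 96.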
